A study of Homo sapiens with 20 samples.

Results

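The HOX genes are the homeobox transcription factor genes of the 4 HOX clusters, measured here by RNA sequencing in 20 established lines of human biliary tract cancer. Members were taken by symbol: every entry of the count table whose RefSeq identifier mapped to HOXA, HOXB, HOXC or HOXD followed by a number. This gave 39 of 24222 entries, of which 11 lie in the HOXA cluster, 10 in HOXB, 9 in HOXC and 9 in HOXD. The lines came from gallbladder cancer (7), extrahepatic bile duct cancer (5), intrahepatic bile duct cancer (4) and the ampulla of Vater (3), and OZ was labelled as both extrahepatic and intrahepatic. The tumour material was primary for 13 lines, ascites for 6 and a metastasis in the liver for 1. Each line gave 1 library, so a line is the replicate, and every spread below lies between lines. All were grown as cultures in serum-containing medium, without the stroma and the liver or duct cells that surround a tumour.

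HOX proteins bind DNA through the homeodomain and give cells positional identity along the body axis. In each cluster the genes stand in a row on 1 strand, from paralog group 1 at the 3′ end, used towards the head, to group 13 at the 5′ end, used towards the tail and in the distal limb, hindgut and urogenital tract. Genes of the same number in different clusters are paralogs. Adult epithelia keep part of the pattern their organ acquired in development, and polycomb and trithorax complexes hold the clusters silent or open.

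The libraries held 10.47 to 15.41 M counts each (M, mega), around a median of 12.49 M. Levels are counts per M on TMM-scaled totals (CPM). A gene without a count could still be present at up to 3 counts by counting error alone. On unscaled totals that is 0.195 to 0.287 CPM, depending on the library. In cultures measured in bulk, fewer cells that transcribe a gene and less RNA per cell cannot be told apart. A gene was called expressed in a line at 1 CPM or more. KRT19, a keratin of bile duct epithelium, had a median of 1440 CPM and EPCAM, an epithelial adhesion molecule, 409 CPM. HuH28, labelled intrahepatic, stood apart: it had 1.03 CPM of KRT19, 0.257 CPM of EPCAM and 7970 CPM of the collagen gene COL1A1. PTPRC, which marks blood cells, did not exceed 1.32 CPM in any line.

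HOX expression was broad but uneven. Of the 780 combinations of gene and line, 424 (54.4%) were expressed. HOXB was expressed most often, in 155 of 200 combinations (77.5%), followed by HOXA with 155 of 220 (70.5%) and HOXC with 98 of 180 (54.4%). HOXD was expressed in 16 of 180 (8.89%). No gene was expressed in all 20 lines. HOXA3, HOXB3, HOXB7 and HOXB9 were each expressed in 19 lines. HOXB1, HOXD3 and HOXD12 were below 1 CPM in every line, with 4, 8 and 2 counts in all 20 libraries together. Counts of the 39 genes ran from 75.5 per M counts in HuH28 to 1580 per M in EGI-1.

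**Figure D1:**
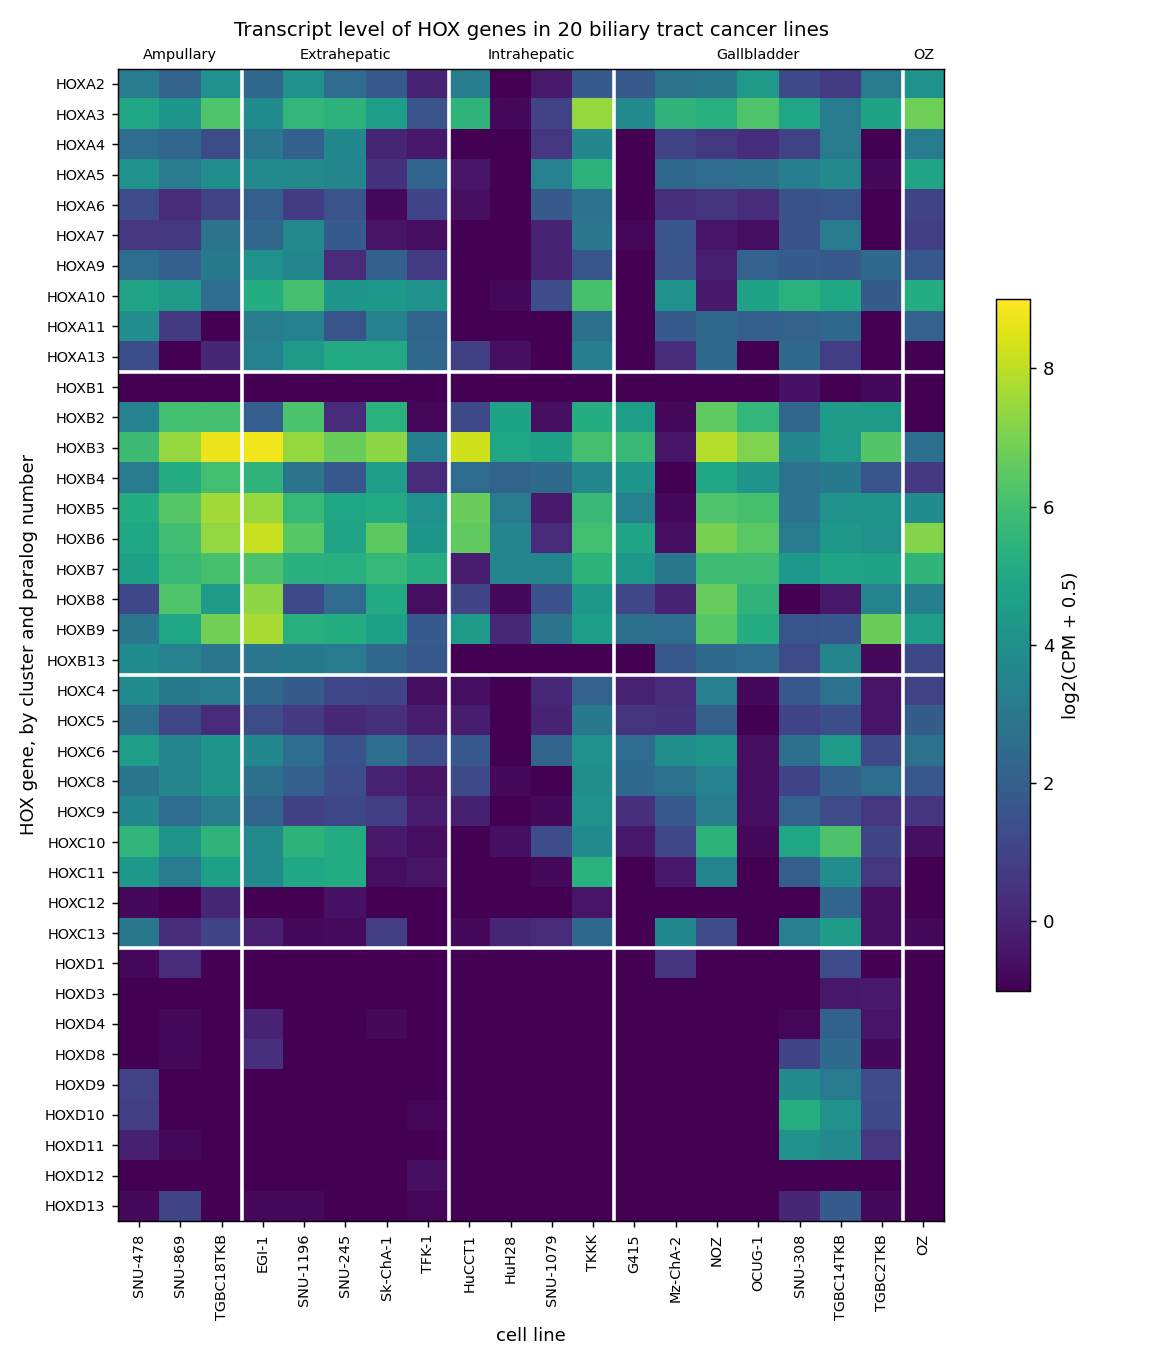
Transcript level of HOX genes (rows, by cluster and paralog number) in each of the 20 lines (columns, by site), as log2(CPM + 0.5) on the colour scale. White lines separate clusters and sites. The HOXB block is bright in most lines, while the HOXD block is dark except in a few lines, chiefly SNU-308 and TGBC14TKB.

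The number of expressed HOX genes per line ran from 6 in HuH28 to 35 in TGBC14TKB, with a median of 23. The 3 ampullary lines expressed 25 to 30 and the extrahepatic lines 14 to 27. Gallbladder lines expressed 12 to 35 and intrahepatic lines 6 to 27, so the ranges of all 4 sites overlapped. The line OZ expressed 22. Metastatic lines expressed 12 to 24 with a median of 17, and primary lines 6 to 35 with a median of 26.

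**Figure D2:**
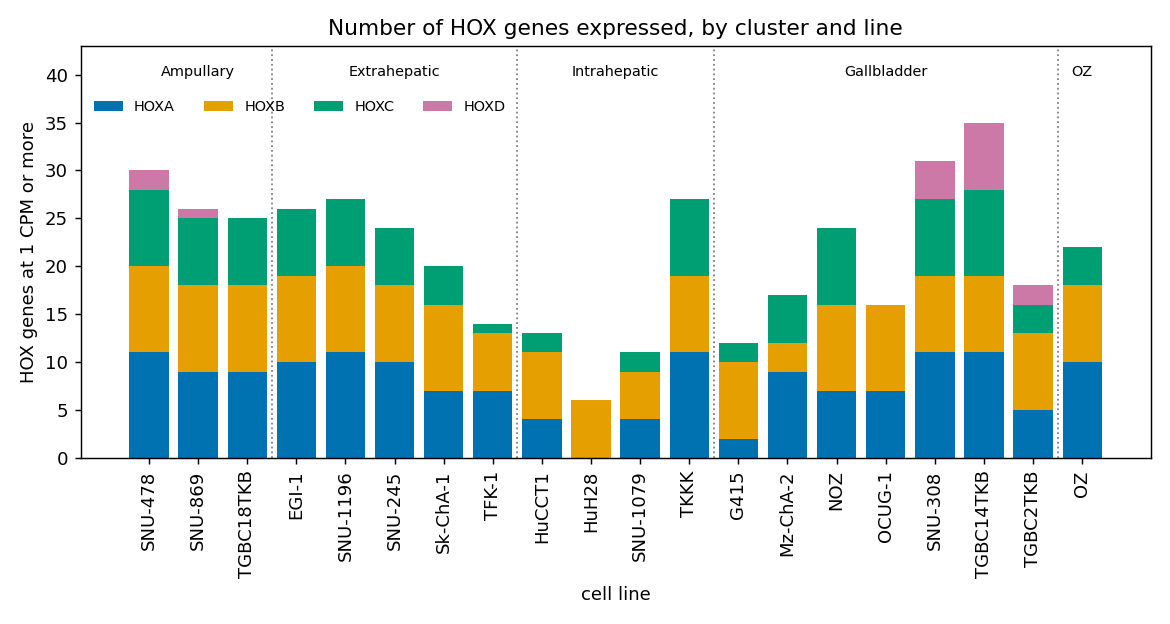
Number of HOX genes at 1 CPM or more in each line (vertical axis, count of genes), stacked by cluster, with the lines grouped by site along the horizontal axis. HuH28 had 6, all of them HOXB genes, and TGBC14TKB had 35.

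Paralog group 2 (HOXA2, HOXB2) was expressed in 80.0% of combinations, group 6 in 78.3% and group 7 in 75.0%. Group 11 was expressed in 43.3%, group 13 in 43.8% and group 12 (HOXC12, HOXD12) in 2.5%. At least 1 gene of groups 3, 5 and 6 was expressed in each of the 20 lines. HuCCT1 was the one line with no expressed group 7 gene, TFK-1 the one with no group 4 gene and HuH28 the one with no group 9 gene.

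Levels of different genes were compared only per kb of transcript. On that scale the HOXB cluster held a median of 78.8% of the summed HOX level of a line, from 14.3% in Mz-ChA-2 to 99.1% in HuH28. HOXA held a median of 18.6% and HOXC 9.06%. By their median over lines, the genes of highest level were HOXB3 (27.5 CPM per kb), HOXB7 (27.5), HOXB6 (26.8), HOXB5 (15.2) and HOXB2 (13.8). The highest in HOXA were HOXA3 (8.56 CPM per kb), HOXA10 (7.52) and HOXA5 (5.18), and in HOXC they were HOXC10 (3.86), HOXC8 (1.98) and HOXC6 (1.95). The medians of HOXB3, HOXB6 and HOXB7 lay far closer to each other than the spread of any of them over the lines. HOXB3 ran from 0.233 to 436 CPM and HOXB6 from 0.156 to 284 CPM. HOXB7 ran from 0.341 to 74.3 CPM.

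Reads of neighbouring HOX genes could be shared in counting. In GENCODE release 29, 22 of the 39 gene spans overlap another HOX gene on the same strand, among them HOXA3 with HOXA4 to HOXA6, HOXB3 with HOXB4 to HOXB6, and HOXC4 with HOXC5 and HOXC6. A further overlap is with antisense RNAs on the opposite strand, which touch 25 spans. The library kit marked strand, but no source used here gives the strand setting of the counting. Reads of such partners may therefore be shared.

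HOXA genes pattern the hindbrain, the limb and the gut tube. The 3′ gene HOXA3 was expressed in 19 lines, from 0.0856 CPM in HuH28 to 170 CPM in TKKK, with a median of 29.1 CPM. HOXA10, a 5′ gene of the posterior trunk and the uterus, was expressed in 16 lines, up to 66.7 CPM in TKKK and 66.0 CPM in SNU-1196. It had 0 counts in G415 and HuCCT1, 0.0856 CPM in HuH28 and 0.314 CPM in NOZ. Further stretches of absence shaped the cluster. In G415 HOXA2 (2.97 CPM) and HOXA3 (13.0 CPM) were expressed, while HOXA4 to HOXA13 reached at most 0.0724 CPM. HuCCT1 expressed HOXA2 (8.62 CPM) and HOXA3 (44.5 CPM), then nothing above 0.256 CPM from HOXA4 to HOXA11, and 1.37 CPM of HOXA13. In TGBC2TKB HOXA4 to HOXA7 reached at most 0.0822 CPM, between 26.5 CPM of HOXA3 and 4.93 CPM of HOXA9. In HuH28 no HOXA gene exceeded 0.171 CPM.

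HOXB genes stand on chromosome 17 and include HOXB13, set apart from the rest by a long gap and known from prostate and distal gut. HOXB3 was highest in EGI-1 (436 CPM) and TGBC18TKB (423 CPM), and lowest in Mz-ChA-2 (0.233 CPM). HOXB5 ran from 0.0778 CPM in Mz-ChA-2 to 196 CPM in TGBC18TKB. EGI-1 was the highest line for HOXB6 (284 CPM), HOXB7 (74.3 CPM), HOXB8 (158 CPM) and HOXB9 (211 CPM). HOXB2 was highest in NOZ (92.0 CPM) and HOXB4 in TGBC18TKB (61.9 CPM). EGI-1, highest for those 4 genes, had 3.51 CPM of HOXB2.

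Single lines broke the HOXB row at different points. Mz-ChA-2 had at most 0.233 CPM of HOXB2 to HOXB6 but 7.47 CPM of HOXB7, 5.29 CPM of HOXB9 and 2.80 CPM of HOXB13. HuCCT1 had 92.6 CPM of HOXB6 and 20.6 CPM of HOXB9 but 0.341 CPM of HOXB7, which is 4 counts with an exact Poisson 95% interval of 0.093 to 0.874 CPM. In the other 19 lines HOXB7 was at 7.47 CPM or more. SNU-308 had no count of HOXB8 beside 19.6 CPM of HOXB7 and 2.53 CPM of HOXB9. HOXB2 was at 0 in OZ, which had 141 CPM of HOXB6. HuH28, in which the other 3 clusters were below 1 CPM throughout, had 27.0 CPM of HOXB2 and 28.8 CPM of HOXB3.

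HOXC genes are active in the trunk, limb and skin, and HOXC13 is known from hair follicle and nail. HOXC6 was expressed in 18 lines with a median of 5.74 CPM and a highest value of 23.1 CPM in SNU-478. HOXC10, a lumbar-level gene, ran from 0 to 73.2 CPM, highest in TGBC14TKB. OCUG-1 had at most 0.155 CPM of any HOXC gene, while its HOXA3 stood at 75.4 CPM and its HOXB3 at 134 CPM. TFK-1 expressed HOXC6 (2.05 CPM) and no other HOXC gene. At the 5′ end, HOXC13 was highest in TGBC14TKB (21.7 CPM), Mz-ChA-2 (12.3 CPM) and SNU-308 (9.80 CPM). HOXC12 was expressed in TGBC14TKB alone (4.27 CPM).

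HOXD genes are the main regulators of digits and of the terminal gut and genital tract. They were expressed in 5 lines and below 1 CPM in the other 15. Just under that cut were HOXD1 in the metastatic gallbladder line Mz-ChA-2 (0.933 CPM) and HOXD8 in the extrahepatic line EGI-1 (0.797 CPM). SNU-308 expressed HOXD8 (1.64 CPM), HOXD9 (13.3 CPM), HOXD10 (36.7 CPM) and HOXD11 (17.3 CPM). TGBC14TKB expressed 7 HOXD genes, among them HOXD9 (8.26 CPM), HOXD10 (16.2 CPM), HOXD11 (12.5 CPM) and HOXD13 (3.15 CPM). TGBC2TKB and SNU-478 expressed HOXD9 (2.06 and 1.44 CPM) and HOXD10 (1.81 and 1.27 CPM), and SNU-869 expressed HOXD13 (1.58 CPM). Of these 5 lines, 3 were from gallbladder and 2 from the ampulla. At this cut all 5 were from primary tumours, as were 13 of the 20 lines.

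Of the 39 members, 20 had an entry in the RefSeq promoter table. The 250 bases before the start of HOXA4, HOXD10 and HOXD11 are printed because HOXA4 was 1 of the 2 members called along the epithelial axis described further on, a call lost without HuH28 or with site as a covariate, and HOXD10 and HOXD11 showed the on or off pattern of HOXD. They are given on the gene's strand with CG dinucleotides in capitals, in build GRCh38.p14, whereas the reads had been aligned to hg19. HOXA4 lies on the minus strand at chr7:27130758-27131007. HOXD10 and HOXD11 lie on the plus strand, at chr2:176116528-176116777 and chr2:176107030-176107279.
HOXA4: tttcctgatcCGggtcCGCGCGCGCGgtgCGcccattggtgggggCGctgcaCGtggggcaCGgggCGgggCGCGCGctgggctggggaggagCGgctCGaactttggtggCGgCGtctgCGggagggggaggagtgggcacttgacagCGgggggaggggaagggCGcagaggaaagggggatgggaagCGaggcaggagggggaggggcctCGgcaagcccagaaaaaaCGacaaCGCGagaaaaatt
HOXD10: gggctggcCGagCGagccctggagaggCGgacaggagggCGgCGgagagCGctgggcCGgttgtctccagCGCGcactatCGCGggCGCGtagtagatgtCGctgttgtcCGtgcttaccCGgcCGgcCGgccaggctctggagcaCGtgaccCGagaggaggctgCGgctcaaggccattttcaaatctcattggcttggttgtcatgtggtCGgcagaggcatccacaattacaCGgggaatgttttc
HOXD11: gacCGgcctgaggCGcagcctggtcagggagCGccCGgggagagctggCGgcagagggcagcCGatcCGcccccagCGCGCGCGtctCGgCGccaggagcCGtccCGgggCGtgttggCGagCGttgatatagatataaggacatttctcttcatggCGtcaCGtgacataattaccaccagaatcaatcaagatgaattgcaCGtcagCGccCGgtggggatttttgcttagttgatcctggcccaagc
The windows hold 26 CG dinucleotides for HOXA4 and 23 each for HOXD10 and HOXD11. Over the 300-base windows of the table, which run 50 bases past the start, the 20 members had a median of 22.5 CG dinucleotides (4 to 44), against 14 over all 35116 windows. The sequence TGATTNAT, bound by PBX and HOX proteins together, occurred on either strand in 2 of 20 members (10.0%, HOXA2 and HOXD11) and in 2.82% of all windows. TATAAA occurred on either strand in 4 of 20 (20.0%) and in 11.5% of all. A match is a description of the letters, not a site. HOXC4 and HOXC5 have the same window in this table.

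The first comparison asked whether HOX genes differed between anatomical sites. The edgeR quasi-likelihood fit held 19 lines and 16615 genes, with OZ left out. Of the members 32 of 39 passed its filter on low counts. The 4 HOXD genes that passed, HOXD8 to HOXD11, did so on counts in few lines, mostly gallbladder lines, so they do not stand for HOXD and nothing is read from their share of a count. No member was called at an adjusted p under 0.05 for any site against the mean of the other 3, for intrahepatic against extrahepatic lines, or in the omnibus test over sites. Among all genes, percent called was 0.00602 in the ampullary contrast and the omnibus test, and 0 in the other 4. At an unadjusted p under 0.05, edgeR had 2 members for ampullary lines (background 5.25% of genes), 2 for extrahepatic (7.01%), 5 for gallbladder (12.3%), 1 for intrahepatic (9.47%), 1 for intrahepatic against extrahepatic (9.4%) and 4 in the omnibus test (10.7%). Of these, 4 for gallbladder and 3 in the omnibus test were HOXD genes, and the remaining 1 in each was HOXB13. Limma-voom called 0 members in each, beside at most 0.0481% of all genes (0.0181% for intrahepatic lines). DESeq2 called 1 member for ampullary lines (background 0.836%), 1 for extrahepatic (1.21%), 2 for gallbladder (2.36%), 3 for intrahepatic (1.71%), 2 for intrahepatic against extrahepatic (1.91%) and 1 in the omnibus test (2%). Its calls for extrahepatic and gallbladder lines were HOXD genes.

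HOXB13 had the smallest p of the members in every comparison of sites except the gallbladder contrast, where HOXD10 had it. HOXB13 was at 14.0, 10.4 and 7.03 CPM in the 3 ampullary lines. The 5 extrahepatic lines had 8.52, 7.82, 7.17, 4.62 and 2.83 CPM, and the 4 intrahepatic lines had no count. Gallbladder lines ran from 0 to 11.2 CPM with a median of 2.80 CPM. Intrahepatic lines thus lay below all ampullary and extrahepatic lines, while 1 gallbladder line, G415, was also at 0. OZ, labelled as both extrahepatic and intrahepatic, had 1.74 CPM. Against a floor of 3 counts over the 4 intrahepatic libraries (0.0629 CPM), pooled HOXB13 was at least 95.6-fold higher in extrahepatic lines and at least 167-fold higher in ampullary lines. The edgeR adjusted p was 0.118 for intrahepatic lines against the other 3 sites (unadjusted p = 0.000112) and 0.411 against extrahepatic lines. For ampullary lines it was 0.394, with a fitted log2 difference of 4.06 (SE 0.93). Fitted differences that include the site at 0 depend on the prior count and are no bound. Within repositories, the KCLB intrahepatic line SNU-1079 was at 0 beside 1.99 to 14.0 CPM in the other 5 KCLB lines. Of the RIKEN lines, HuCCT1, TKKK and G415 were at 0 and TGBC2TKB at 0.0822 CPM, with the other 2 at 7.03 and 11.2 CPM. Across all 20 lines, HOXB13 was expressed in 14 and below 1 CPM in the 4 intrahepatic lines, G415 and TGBC2TKB.

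HOXA13, a regulator of hindgut and distal limb, stood at 34.5, 32.1, 20.8, 9.88 and 4.53 CPM in the 5 extrahepatic lines. The intrahepatic lines had 9.35, 1.37, 0.171 and 0 CPM and the ampullary lines 2.11, 0.541 and 0 CPM. Gallbladder lines ran from 0 to 5.03 CPM with a median of 0.7 CPM. The lowest extrahepatic line lay above all ampullary lines but below TKKK and the 2 highest gallbladder lines. OZ, labelled as both extrahepatic and intrahepatic, had no count of HOXA13. The fitted log2 difference from the other sites was 3.67 (SE 1.26), with an edgeR adjusted p of 0.55. The RNA HOTTIP differed by 4.13 in the same direction (SE 1.27) with an edgeR adjusted p of 0.489. It overlaps HOXA13 on the opposite strand, so reads may be shared, and it was named after its value was seen.

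HOXD10 was at 36.7, 16.2 and 1.81 CPM in 3 gallbladder lines and at 0 in the other 4. Outside the gallbladder it reached 1.27 CPM in SNU-478 and 0.0708 CPM in TFK-1. The edgeR adjusted p for gallbladder lines was 0.215, with 0.225 for HOXD11, 0.254 for HOXD9 and 0.27 for HOXD8. Most counts of these genes came from SNU-308 and TGBC14TKB, and HOXD9 to HOXD11 were at 0 in all intrahepatic lines. HOXC4, a cervical-level gene, had 13.8, 8.66 and 7.83 CPM in the ampullary lines. The gallbladder line NOZ (9.66 CPM) lay within that range and the other 15 lines at the 4 single sites lay below it, up to 6.09 CPM. Its log2 difference of 2.31 (SE 1.07) had an edgeR adjusted p of 0.923. HOXB4 followed among ampullary contrasts at 1.69 (SE 0.99) and an edgeR adjusted p of 0.923. HOXC13 was lower by fit in extrahepatic lines at -3.06 (SE 1.58, edgeR adjusted p 0.743).

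HOXD aside, the ampullary contrast had a positive fitted difference for 8 of 11 HOXA genes, all 9 tested HOXB genes and all 8 tested HOXC genes. The median was 0.35 in HOXA and 1.47 in HOXC, against -0.11 over all genes tested. In the intrahepatic contrast 7 of 11 HOXA genes, all 9 HOXB genes and 6 of 8 HOXC genes were negative. The median over all genes tested was 0.04 in that contrast. None of these genes passed the edgeR test in either contrast. Genes of 1 cluster move together and may share reads, so counts by sign, here and below, are not independent results.

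**Figure D3:**
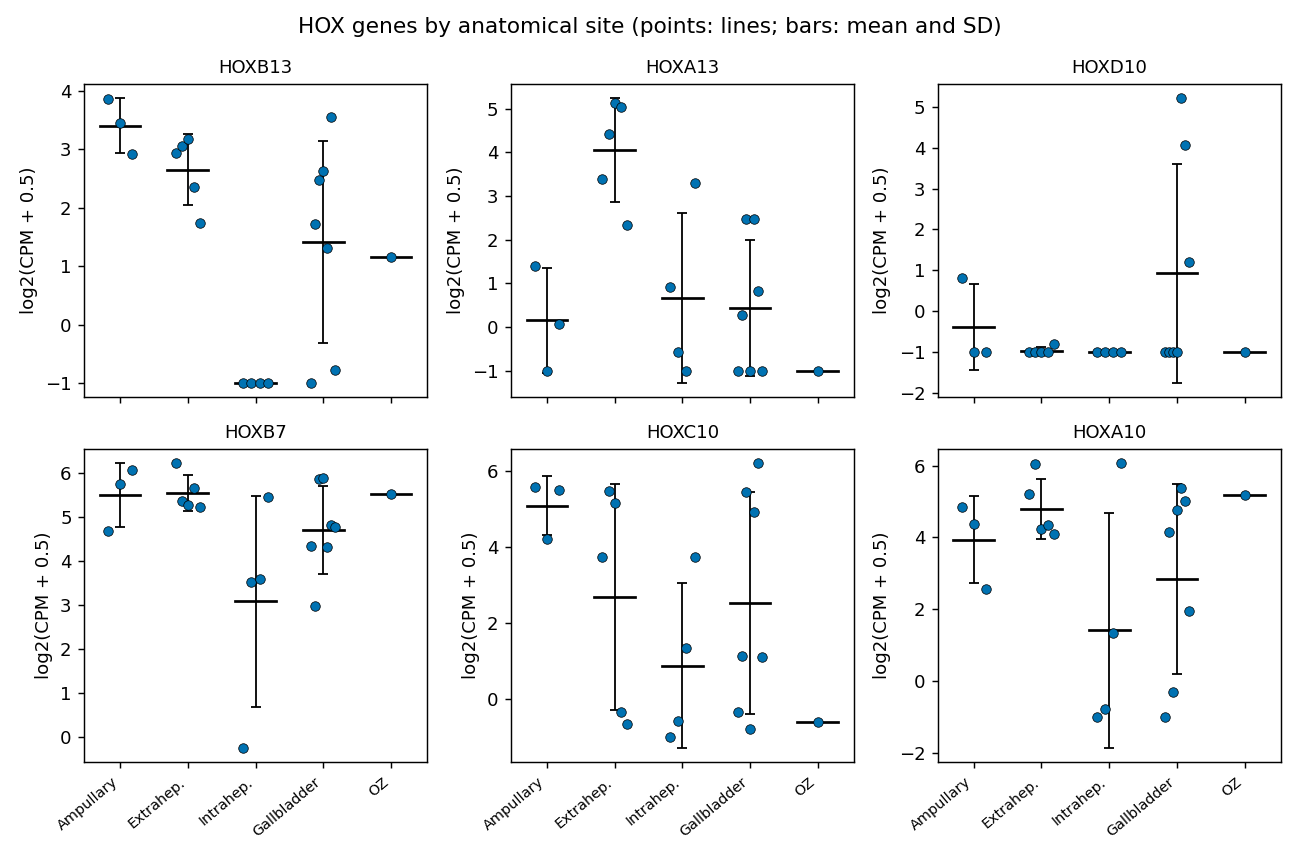
Levels of 6 HOX genes by site, as log2(CPM + 0.5) on the vertical axis. Points are lines and bars are the mean and SD of the lines of a site. HOXB13 lay at the bottom of the scale in the 4 intrahepatic lines, and HOXD10 was high in 2 gallbladder lines.

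The second comparison set metastatic against primary lines in all 20 lines. The fit held 14843 genes and 28 of 39 members, with no HOXD gene among them. No member was called by edgeR, DESeq2 or limma-voom, and percent called among all genes was 0 with edgeR and limma-voom and 1.22 with DESeq2. At an unadjusted p under 0.05 there were 2 members in edgeR, beside a background of 7.73%. HOXA7 ran from 0 to 2.57 CPM with a median of 0.224 CPM in the 7 metastatic lines. In the 13 primary lines it ran from 0 to 12.5 CPM with a median of 2.26 CPM. Its log2 difference was -2.48 (SE 1.14, edgeR adjusted p 0.618), and the groups overlapped. HOXC11 ran from 0 to 10.8 CPM with a median of 0 in metastatic lines and from 0 to 41.1 CPM with a median of 13.4 CPM in primary lines. Its log2 difference was -3.21 (SE 1.5, edgeR adjusted p 0.635). HOXA6 followed at -1.78 (SE 0.89, edgeR adjusted p 0.651). Of the 28 members 22 were lower in metastatic lines by fit, with a median of -0.51 against -0.02 over all genes. Of the 7 metastatic lines 6 were from ascites, and origin was unevenly spread over sites, with no metastatic line from the ampulla.

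The third comparison followed an axis from mesenchymal to epithelial transcripts. The score of a line is the mean of 18 epithelial genes minus the mean of 20 mesenchymal genes, in log2 CPM centred per gene, and no HOX gene is in either list. The lowest score was -11.88 (HuH28) and the highest 5.04 (SNU-245). The edgeR fit held 16635 genes and 32 members. It called 2 members, both higher towards the epithelial end, beside 7.64% of all genes called and 3.24% called higher. HOXA4, a 3′ to middle gene, rose by 0.47 log2 units per unit of score (SE 0.12, edgeR adjusted p 0.0207). HOXC11, a 5′ gene of the limb and lumbar region, rose by 0.61 (SE 0.17, edgeR adjusted p 0.0319). HOXA7 at 0.42 (SE 0.13) missed the threshold with an edgeR adjusted p of 0.0519. DESeq2 called 11 members beside 13.8% of all genes and limma-voom 5 beside 8.58%.

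HOXA4 was at 12.1 CPM in SNU-245 and 11.9 CPM in TKKK, near the epithelial end. In the 4 lines of lowest score, HuH28, TGBC2TKB, OCUG-1 and Mz-ChA-2, it was at 0, 0, 0.699 and 1.56 CPM. TFK-1 had a score of 3.49 and 0.283 CPM, so high scores came with both high and low HOXA4. HOXC11 was at 41.1 CPM in TKKK, 34.7 CPM in SNU-245 and 31.0 CPM in SNU-1196. It was at 0 in HuH28, OCUG-1 and G415, and also in OZ (score 2.60) and HuCCT1 (score 0.89). HOXB4 showed no such order, with 4.11 CPM in HuH28, 18.7 CPM in OCUG-1, 61.9 CPM in TGBC18TKB and 2.84 CPM in SNU-245.

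Both calls depended on single lines. Without HuH28 no member was called, while the calls over all genes fell from 1271 of 16635 to 506 of 15417. The edgeR adjusted p was 0.0836 for HOXA4 (0.44 per unit) and 0.106 for HOXC11 (0.60 per unit). HOXC11 was also not called without Mz-ChA-2, OCUG-1, SNU-245 or TKKK, with edgeR adjusted p values of 0.0501 to 0.054. The fit with site as a covariate left out OZ and called no member, beside 229 of 17316 genes. Its slopes were 0.52 for HOXA4 (edgeR adjusted p 0.112) and 0.84 for HOXC11 (0.0744). Without OZ and without a covariate the slopes were 0.46 and 0.62. With repository as a covariate the slopes were 0.53 for HOXA4 (edgeR adjusted p 0.0436) and 0.65 for HOXC11 (0.0816), beside 704 of 16635 genes called. Fewer genes were called with either covariate. Whether site or repository accounts for the slopes was not tested. Within the 6 RIKEN lines, Pearson's r with the score was 0.80 for HOXA4 and 0.75 for HOXC11, and within the 6 KCLB lines 0.76 and 0.90. Without the 2 KCLB lines farthest from the median score, these last became -0.37 and 0.28, so the KCLB relation rests on those lines. Without the 2 RIKEN lines chosen the same way, r was 0.90 for HOXA4 and 0.98 for HOXC11.

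At an unadjusted p under 0.05 there were 12 of 32 members in edgeR, all higher towards the epithelial end, beside 22.2% of all genes in either direction and 10.8% higher. These were 6 HOXA, 5 HOXC, 1 HOXD and 0 HOXB genes. HOXD aside, the slope was positive for all 11 HOXA genes, 8 of 9 HOXB genes and all 8 tested HOXC genes. By cluster the median slope was 0.29 in HOXA, 0.14 in HOXB and 0.31 in HOXC, against 0 over all genes. The difference between clusters was not tested. HuH28, the line of lowest score, had every HOXA and HOXC gene below 1 CPM, the highest being HOXC13 at 0.514 CPM.

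**Figure D4:**
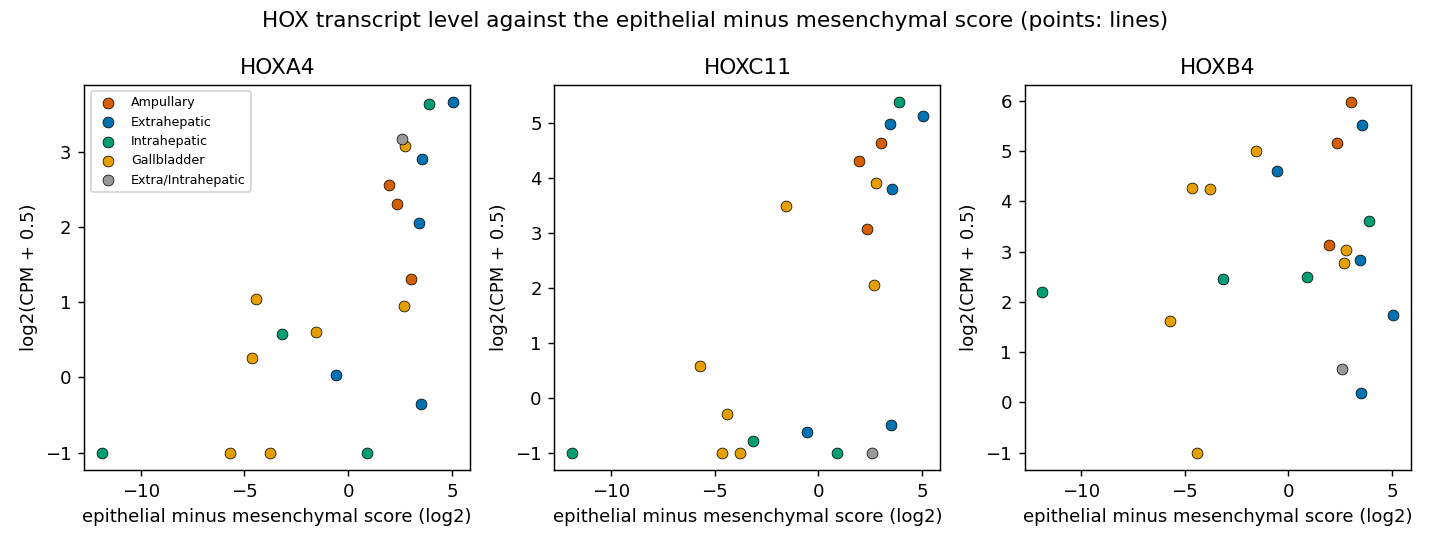
Levels of HOXA4, HOXC11 and HOXB4, as log2(CPM + 0.5), against the epithelial minus mesenchymal score in log2 units. Each point is a line, coloured by site. HOXA4 and HOXC11 were low in most lines of low score and varied widely among lines of high score, and HuH28 lies alone at the left.

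How members moved with each other was described for the 30 genes expressed in 3 or more lines, as Pearson's r of log2(CPM + 0.5) over the 20 lines, which share depth and the overlaps in counting given above. The 120 pairs of 1 cluster had a median r of 0.55, or 0.52 without the 2 lines farthest from the median. The 26 pairs of 1 paralog number in different clusters had a median of 0.30, close to the 0.25 of the 289 other pairs. Position within the cluster ordered the values. Genes 1 step apart had a median r of 0.76, those 2 or 3 steps apart 0.61 and those 4 or more steps apart 0.41. Over all pairs of a cluster the median was 0.68 in HOXC (28 pairs), 0.55 in HOXB (36 pairs) and 0.42 in HOXA (55 pairs). These medians were not matched for distance, and the clusters differ in length.

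Neighbours were not alike at every step. In HOXA, HOXA2 and HOXA3 had an r of 0.85 and HOXA4 and HOXA5 0.87, while HOXA3 and HOXA4 between them had 0.42. This step is where G415, HuCCT1 and TGBC2TKB passed from expressed to silent genes. In HOXB, HOXB5 and HOXB6 had 0.93 and HOXB9 and HOXB13 had 0.27. In HOXC, HOXC10 and HOXC11 had 0.93 while HOXC11 and HOXC13, with HOXC12 between them, had 0.35. HOXD9 and HOXD10 had 0.99, a value that rests on the few lines that express them.

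**Figure D5:**
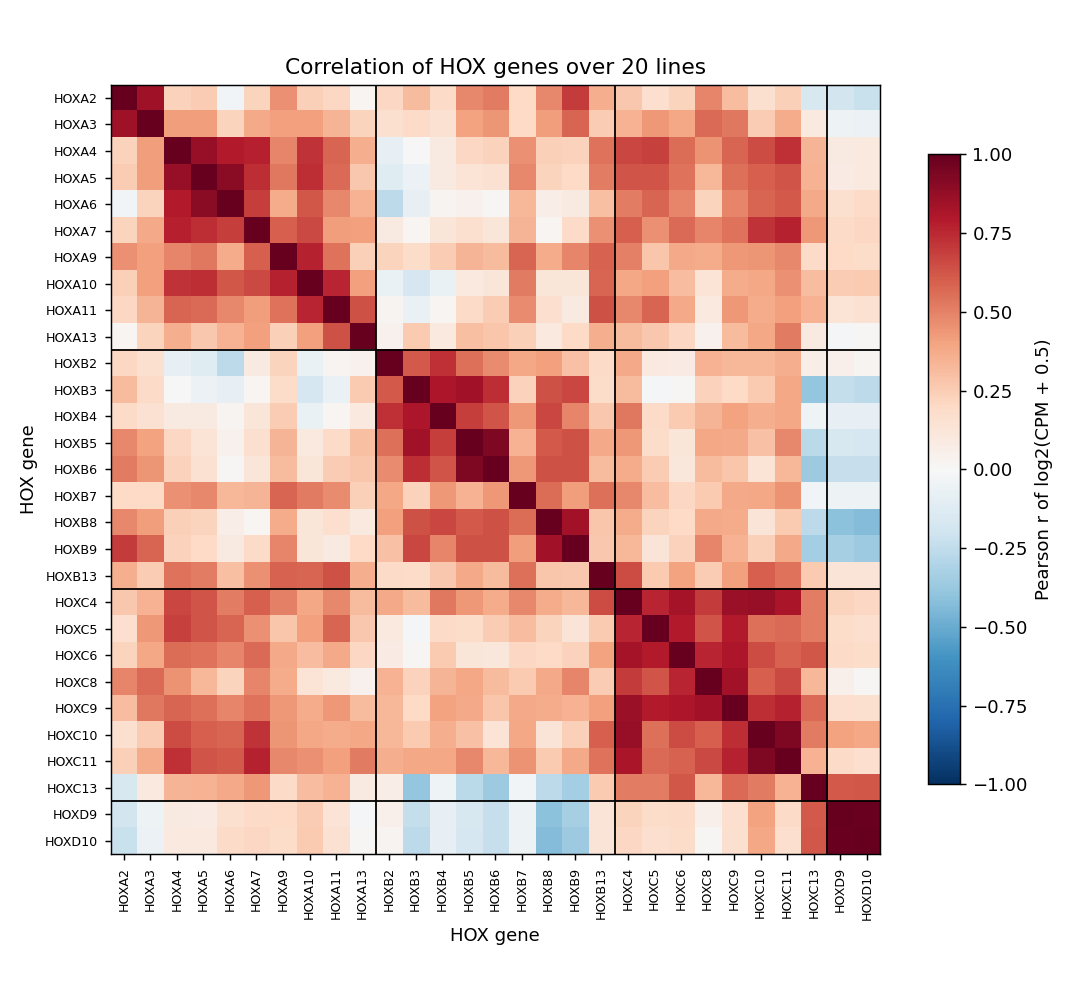
Pearson's r over 20 lines for pairs of HOX genes expressed in 3 or more lines, ordered by cluster and paralog number, with black lines between clusters. The red blocks along the diagonal are pairs within a cluster, and HOXA2 and HOXA3 form a block of their own.

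Among all 16307 genes searched, those most like the mean log2 level of each cluster were named over the 20 lines. For HOXA they were HOXA10-AS (r = 0.87), PRKCZ (0.84) and NELFA (0.81). For HOXB they were HOXB-AS3 (0.87), MEN1 (0.79) and ANXA1 (0.78), and for HOXC they were HOTAIR (0.87), PCK2 (0.82) and S100P (0.80). HOXD9 and HOXD10 were most like PPP2R2B (0.91), MARK1 (0.91) and ACADL (0.91), but PPP2R2B fell to 0.49 without SNU-308 and TGBC14TKB. An antisense RNA of the cluster itself led in HOXA, HOXB and HOXC. On the opposite strand HOXA10-AS overlaps HOXA9 and HOXA10, HOXB-AS3 overlaps HOXB3 to HOXB6, and HOTAIR overlaps HOXC11. Reads may thus be shared in counting, and how far that raised these values was not tested. HOTAIR, a long RNA antisense to HOXC11, ran from 0 to 45.6 CPM and was highest in TGBC18TKB and TKKK (39.1 CPM).

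Other genes of HOX biology were read from lists in the same fits, in which 7.64% of all genes were called along the score and 3.24% called higher. TALE proteins, the PBX, MEIS and PKNOX homeodomain partners of HOX, had 1 of 10 tested genes called along the score and 0 in the site contrasts and by origin. It was PKNOX2, lower towards the epithelial end by -0.88 per unit (SE 0.14, edgeR adjusted p 0.000803), with 30.3 CPM in HuH28, 15.9 CPM in TGBC2TKB, 15.7 CPM in Mz-ChA-2 and at most 0.137 CPM elsewhere. MEIS2 ran from 0.811 to 305 CPM. RNAs of the HOX clusters had 3 of 12 tested called higher towards the epithelial end: HOTAIRM1 at 0.43 (edgeR adjusted p 0.0404), HOXA-AS3 at 0.55 (0.00549) and HOXC-AS3 at 0.51 (0.0185). HOXC-AS3 did not exceed 1.37 CPM.

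Of the 16 tested genes that flank the clusters, 1 was called along the score. SMUG1, a DNA repair glycosylase near HOXC, rose by 0.10 per unit (SE 0.02, edgeR adjusted p 0.0179). None of 27 polycomb, trithorax and related chromatin genes was called by edgeR in any comparison. Along the score 1 of them had an unadjusted p under 0.05 in edgeR, beside 22.2% of all genes. EZH2, the polycomb methyltransferase, was at 39.4 to 151 CPM in all 20 lines. ParaHox and retinoid genes had 0 of 14 tested called by edgeR along the score, with 2 at an unadjusted p under 0.05 beside the same 22.2%. CDX1 and CDX2, the intestinal ParaHox factors, were highest in SNU-245 at 173 and 131 CPM. No member of these 5 lists was called by edgeR in a comparison of sites or by origin. In each of those comparisons 0 to 4 of each list had an unadjusted p under 0.05 in edgeR, beside 5.25% to 12.3% of all genes. Along the score 6 of the 12 tested RNAs of the HOX clusters did, all higher, beside 22.2% of all genes and 10.8% higher.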

How the data were processed

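Poly(A) RNA was sequenced from 20 lines with a stranded kit, per the labels' protocols. The deposited table holds whole-number counts of reads per gene, which the authors did not normalize, judged from the values. The submitters' processing notes name Trimmomatic, TopHat2 2.0.8, Picard 1.69, featureCounts and the builds hg19 and GRCh37. For the strand setting and the annotation release, nothing was stated (not given in the sources used here). Symbols came from a RefSeq gene table for 23204 entries and from GENCODE for 348, and 670 stayed without one. GENCODE release 29 gave transcript lengths for all 39 members.

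Fits used edgeR 4.0.16 under R 4.3.3 with TMM scaling, the filterByExpr filter and two-sided robust quasi-likelihood tests, adjusted by Benjamini-Hochberg over all genes tested. Site was the only term in the site fit, origin in the origin fit, and the score was a continuous term. DESeq2 1.42.0 and limma-voom (limma 3.58.1), RLE scaling, other filters, covariates and leaving out each line were alternatives. The fits were tested on simulated counts. Correlations use a pseudocount of 0.5 and carry no p. Intervals are exact Poisson 95% intervals and cover counting error only. The labels do not give a sequencing batch, and the repository of each line (KCLB 6, RIKEN 6, HSRRB 4, DSMZ 2, Zurich 2) stood in for one, with DSMZ and Zurich merged.

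Members and lists were chosen with earlier results of these data known. Genes were named by a rule: members called, the 3 of smallest p in a comparison, the 10 of widest range, the 3 of highest median per cluster, those under 1 CPM everywhere, called genes of each list with those of widest range, and the 3 genes most like each cluster. Members named for breaks in a cluster, and EZH2 and HOTTIP, were chosen after their values were seen. Identity between HOX proteins was not analysed here. Some genes that met the rule are not reported here, in the text or the plots.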

Additional observations from a re-analysis of the deposited data

Results flagged for a closer look

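Members with at least 1 CPM in some line of a site were checked, in the sites of 4 to 7 lines, for a line far from the rest, on log2(CPM + 0.5), by Dixon's 95% critical value. Of 91 groups checked 5 had such a line. The chance rate of about 1 in 20 assumes normally spread values and does not hold where the other lines are at or near 0. The 5 flags are therefore read only as descriptions of single lines. TGBC14TKB had 4.27 CPM of HOXC12, 3.85 CPM of HOXD4 and 3.15 CPM of HOXD13, while the other 6 gallbladder lines had at most 0.164, 0.247 and 0.548 CPM. All 3 are genes that were rarely expressed in these lines. TKKK had 5.96 CPM of HOXA11 and 41.1 CPM of HOXC11. The other 3 intrahepatic lines were at 0 for HOXA11 and at most 0.0822 CPM for HOXC11. The cause was not tested.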

How the results depend on the processing

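The number of members called moved with the test. DESeq2 called 1 member for ampullary lines (HOXB13), 1 for extrahepatic (HOXD11), 2 for gallbladder (HOXD10, HOXD11), 3 for intrahepatic (HOXB13, HOXD10, HOXD11), 2 for intrahepatic against extrahepatic (HOXB13, HOXD10) and 1 in the omnibus test (HOXB13), where edgeR called 0. HOXB13, HOXD10 and HOXD11 had no count in any intrahepatic line, and each of these comparisons includes that site, so all of these calls involve a site at 0. Leaving out each line gave 0 in every site and origin comparison. Along the score, where edgeR called 2, DESeq2 called 11, limma-voom 5, the fit with repository as covariate 1 and that with site as covariate 0, beside 2299, 1427, 704 and 229 of all genes (1271 with edgeR). Leaving out each line gave 0 to 4 members beside 506 to 1275 of all genes (0 and 506 without HuH28, 4 without NOZ or TFK-1, beside 1225 in each). As residuals after the score, the median r fell to 0.46 within clusters and 0.13 for unrelated pairs, and to 0.69, 0.51 and 0.31 at 1 step, at 2 or 3 steps and at 4 or more steps. A pseudocount of 2 gave 0.69 at 1 step. Leaving out each line gave 0.52 to 0.58 within clusters, 0.24 to 0.36 within paralog numbers and 0.20 to 0.32 otherwise, and 0.72 to 0.78, 0.56 to 0.63 and 0.36 to 0.46 by step. At 5 CPM, 87 HOXA, 56 HOXC and 6 HOXD combinations were expressed. None of the values recomputed under these alternatives reversed its direction, but HOXA4's r with the score within the KCLB lines went from 0.76 to -0.37 without 2 lines, and over all lines HOXA2's went from 0.27 to -0.02 and HOXB8's from 0.16 to -0.02. The cause of these shifts was not tested. No paired analysis was possible because the replicate numbers only follow the order of deposition. Levels near 0.2 CPM are at the limit of depth.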
